A study of Mus musculus with 8 samples.

Results

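This section describes 9 mouse genes of the acute-phase response and of protease inhibition in cultured spermatogonial stem cells, the germ cells of the testis that renew themselves and feed sperm production. They are Saa3, Saa1, Saa2, Serpina3n, Serpina3g, Lcn2, A2m, C3 and Hp. A gene was taken from the array when a probe set (the group of probes summarised to 1 value) carried its symbol and no other in the platform's probe-to-gene table, and of several such probe sets the brightest on average was to stand for the gene. Members were thus chosen by symbol, with mean signal as the only measured value in the rule. That left 7 of the 9 genes, among 19938 genes with a probe set of their own, and each of the 7 had 1 probe set, so brightness chose nothing. Serpina3g and C3 have no probe set of their own in that table and are not analysed here. The list was drawn up with earlier results of these data known, Saa3 and A2m being among the large changes, so the tests below describe the genes and do not support the choice of them.

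RNA came from 8 cultures or samples in 3 groups, all labelled as spermatogonial stem cells. In the first, donors were 8 days old and the cells had spent 7 to 10 weeks in culture (young short culture, n = 3). The second had donors of the same age and a culture of 14 to 18 months (young long culture, n = 3). In the third, the cells were those of a serially transplanted line with a donor age given as 1500 days, also held for 14 to 18 months in culture (serial long culture, n = 2), so age and transplantation cannot be told apart. The labels name no strain, allele or treatment, do not describe medium or supporting cells, and do not say whether replicates were separate donors or cultures, so p-values here reflect array-to-array spread that could be technical alone. The number of arrays limits the precision throughout.

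The acute-phase response is the change in secreted proteins that follows injury, infection or inflammation, best known from the liver but also made locally by fibroblasts, epithelium and leukocytes. Cytokines of the interleukin 6 family act through STAT3, and interleukin 1 and tumour necrosis factor act through NF-kB, with C/EBP factors sharing many target genes. The products include serum amyloid A proteins, iron and haemoglobin binders, complement, and inhibitors that hold proteases in check. In the testis, alpha-2-macroglobulin is known as a product of Sertoli cells.

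Signals were summarised by RMA and are given as log2, so a difference of 1 is a doubling. RMA makes no detection call. Dimness is judged here against the array-wide median, 6.94 over all probe sets, and against 5.52, the highest lower quartile of any array. The arrays correlated at 0.974 or more, and the second young short-culture array stood apart from its group (0.990 and 0.991 to the others, which correlated at 0.996 with each other). Of 18 germ cell markers, 17 had a mean above the array-wide median, as had 17 of 19 fibroblast, 7 of 8 epithelial and 7 of 13 Sertoli cell markers. Transcripts typical of fibroblasts were thus measured beside those of germ cells. Such counts do not identify the cells or test the label. In bulk RNA, fewer cells of a type and less RNA per cell cannot be told apart.

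Between short and long culture of young-donor cells, 4 of the 7 measured genes fell and 1 rose. Saa3, Serpina3n, Hp and Lcn2 were lower after long culture, A2m was higher, and Saa1 and Saa2 did not pass the test. Across the array, limma called 3260 of 28944 probe sets (11.3%) at a Benjamini-Hochberg adjusted p under 0.05, with 5.83% lower and 5.43% higher. Centring each array on its median gave 59.7% of calls as higher in place of 48.3%. Array medians ran only from 6.90 to 6.98, so centring could not have turned the directions of the 5 called genes. For 31.4% of probe sets the arrays of the 2 groups did not overlap (16.3% lower, 15.1% higher), as for the 5 called genes. The median difference of the 7 genes was -1.06, against -0.04 for all probe sets.

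**Figure D1:**
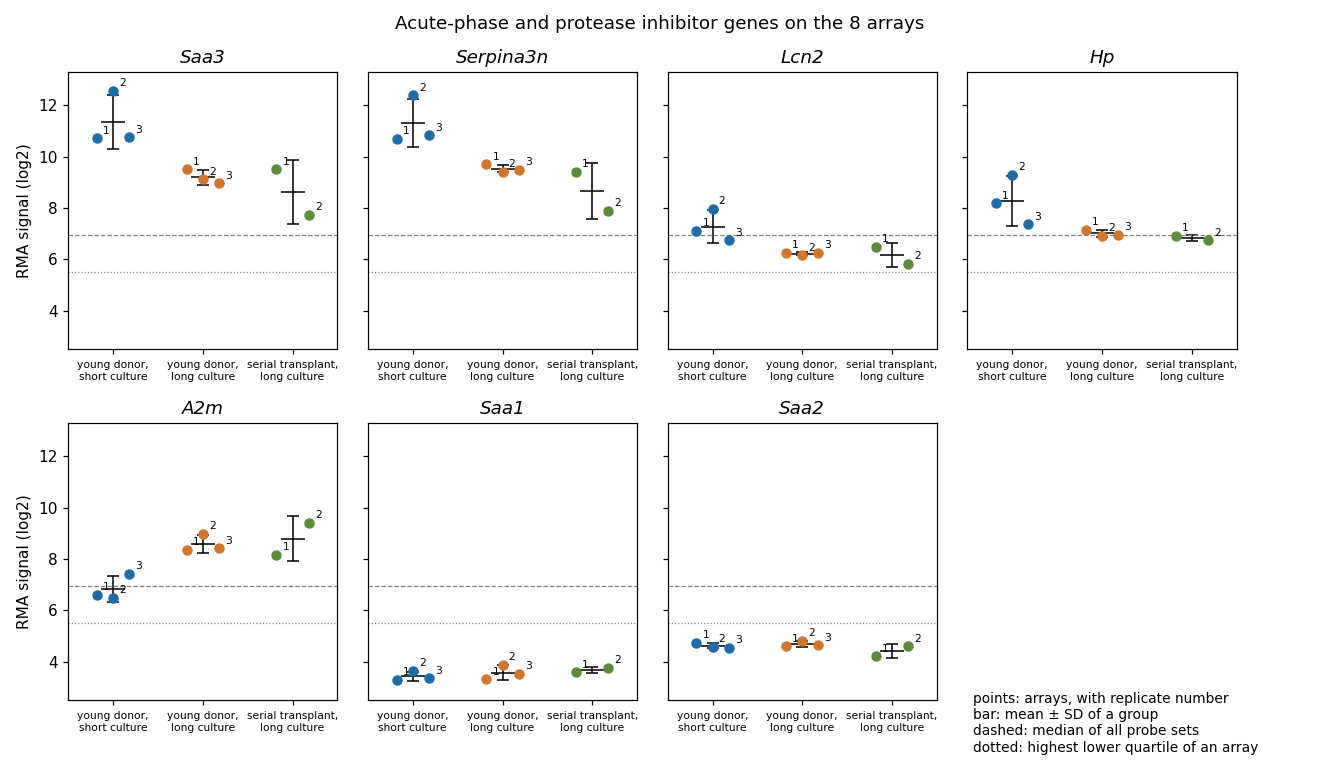
RMA signal (log2, vertical axis) of the 7 measured genes on each array by culture group; points carry the replicate number, bars give the mean and SD, the dashed line is the array-wide median (6.94) and the dotted line the highest lower quartile of an array (5.52). Saa3, Serpina3n, Lcn2 and Hp are higher on all 3 short-culture arrays than on any long-culture array, A2m is lower there, and Saa1 and Saa2 stay below the dotted line throughout.

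Saa3 encodes a serum amyloid A, a small lipid-carrying protein that many tissues outside the liver make in inflammation. Its log2 signal was 10.71, 12.56 and 10.75 on the 3 young short-culture arrays, 9.51, 9.11 and 8.97 on the young long-culture arrays, and 9.52 and 7.73 on the serial arrays. Every short-culture value lay above every long-culture value, by at least 1.19, with replicate 2 the highest array and serial replicate 2 the lowest. The means were 11.34 ± 1.06 (SD, n = 3) in short and 9.20 ± 0.28 (n = 3) in young long culture, a fall of 4.42-fold (log2 difference -2.14, SE 0.49; limma adjusted p = 0.0196). Only 19 of 28944 probe sets changed as much or more in size. Without young long-culture replicate 1, 2 or 3 the adjusted p was 0.0502, 0.0579 and 0.0788, with differences between -2.30 and -2.03. The size rested in part on the highest array: without young short-culture replicate 2 the difference was -1.53 (adjusted p = 0.0352).

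Saa1 and Saa2 encode the serum amyloid A proteins that the liver secretes into blood. Saa1 ran from 3.29 to 3.89 and Saa2 from 4.21 to 4.83 over the 8 arrays, below the lower quartile of every array. Signals of that size may be background, so no level can be read from them. Their differences between long and short young culture were 0.15 ± 0.15 (SE; adjusted p = 0.563) and 0.06 ± 0.12 (adjusted p = 0.795). The Saa1 and Saa2 genes are near-identical copies whose probes can share targets, and their separate values are uncertain for that reason as well.

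The bases just upstream of the gene starts are shown for the 3 serum amyloid genes, of which 1 changed, and for Serpina3n and Lcn2, which moved with Saa3. RefSeq's promoter table (build GRCm38.p6) held entries for 7 of the 9 listed genes. Each sequence covers the 250 bases before the start, 5′ to 3′ on the gene's strand: chr7:46715677-46715926 (minus strand) for Saa3, chr7:46742981-46743230 (minus) for Saa1, chr7:46751583-46751832 (plus) for Saa2, chr12:104406458-104406707 (plus) for Serpina3n and chr2:32387740-32387989 (minus) for Lcn2. Capitals mark matches to GGG, any 4 bases, then TCC (a form of the NF-kB motif), or to TTGCNNAA (a form of the C/EBP motif), where N is any base.
Saa3: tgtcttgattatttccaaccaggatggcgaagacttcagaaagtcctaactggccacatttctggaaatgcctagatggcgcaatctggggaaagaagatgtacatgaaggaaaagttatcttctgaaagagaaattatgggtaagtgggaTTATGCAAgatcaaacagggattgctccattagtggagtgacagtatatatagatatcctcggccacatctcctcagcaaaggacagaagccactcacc
Saa1: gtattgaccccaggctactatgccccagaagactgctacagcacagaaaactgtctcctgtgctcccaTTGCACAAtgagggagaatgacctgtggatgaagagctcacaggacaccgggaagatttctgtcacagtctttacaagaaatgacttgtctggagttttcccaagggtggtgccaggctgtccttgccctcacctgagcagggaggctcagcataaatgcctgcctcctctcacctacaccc
Saa2: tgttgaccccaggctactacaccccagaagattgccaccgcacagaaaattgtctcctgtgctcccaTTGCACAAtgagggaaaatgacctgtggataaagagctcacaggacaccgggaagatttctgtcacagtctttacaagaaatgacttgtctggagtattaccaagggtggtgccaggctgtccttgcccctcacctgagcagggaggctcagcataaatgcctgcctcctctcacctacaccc
Serpina3n: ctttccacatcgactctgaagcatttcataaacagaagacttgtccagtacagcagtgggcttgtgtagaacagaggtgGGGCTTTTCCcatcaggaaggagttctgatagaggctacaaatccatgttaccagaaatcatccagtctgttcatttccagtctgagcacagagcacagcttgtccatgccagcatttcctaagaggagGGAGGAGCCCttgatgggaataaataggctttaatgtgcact
Lcn2: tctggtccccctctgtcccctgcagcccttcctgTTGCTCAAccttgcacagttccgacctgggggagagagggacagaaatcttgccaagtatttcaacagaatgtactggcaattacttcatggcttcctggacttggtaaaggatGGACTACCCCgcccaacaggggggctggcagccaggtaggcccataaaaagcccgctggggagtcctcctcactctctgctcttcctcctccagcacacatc
Both motifs were searched on both strands, as was TTCNNNGAA (a form of the STAT motif), and TATAAA on the sense strand alone. In the printed windows no matches overlapped. Saa3, Saa1, Saa2 and Lcn2 each held 1 C/EBP match, against 9.56% of 32851 promoters of the same length. Serpina3n held 2 NF-kB matches and Lcn2 1, where 16.5% of promoters held at least 1. None of the 5 windows held the STAT or the TATAAA letters, which occurred in 7.02% and 7.59% of promoters. A match describes letters and is not a binding site. The Saa1 and Saa2 windows were 94.8% identical over 251 aligned columns, and Saa3 was 52.2% identical to Saa1 over 295.

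Hp encodes haptoglobin, which binds free haemoglobin in plasma. It stood at 8.18, 9.29 and 7.37 in young short culture, at 7.16, 6.93 and 6.95 in young long culture, and at 6.93 and 6.75 in the serial line. The short-culture arrays spread over a wide range, and the lowest of them lay 0.21 above the highest long-culture array. From 8.28 ± 0.96 (SD) to 7.01 ± 0.13 the fall was 2.41-fold (log2 -1.27, SE 0.35; limma adjusted p = 0.0384). The long-culture values sit at the array-wide median, where signal and background are hard to separate. Hp was the least steady of the calls: it was lost without young long-culture replicate 1, 2 or 3 (0.0906 to 0.119), without young short-culture replicate 1 (0.0719) and without either serial array (0.0581), and without young short-culture replicate 2 the difference was -0.77, still past the test.

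Lcn2 encodes lipocalin 2, which withholds iron from bacteria by binding their siderophores. Its values were 7.12, 7.98 and 6.75 in young short culture, 6.27, 6.16 and 6.25 in young long culture, and 6.49 and 5.83 in the serial line. The groups did not overlap, with a gap of 0.48 between young short and young long culture, and all 5 long-culture values lay below the array-wide median. The mean went from 7.28 ± 0.63 to 6.23 ± 0.06, a fall of 2.08-fold (log2 -1.06, SE 0.26; limma adjusted p = 0.0256). This call also ended without young long-culture replicate 1, 2 or 3 (0.0724 to 0.0832), and without young short-culture replicate 2 the difference was -0.71 (0.0361).

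Serpina3n encodes a secreted serpin that blocks proteases such as granzyme B and cathepsin G by trapping them in a covalent complex. It measured 10.69, 12.39 and 10.83 in young short culture, 9.70, 9.41 and 9.50 in young long culture, and 9.42 and 7.90 in the serial line. As with Saa3, short-culture replicate 2 was the highest array, serial replicate 2 the lowest, and the groups were separated, here by 0.99 between the young cultures. The mean of 11.30 ± 0.94 fell to 9.54 ± 0.15, or 3.40-fold (log2 -1.76, SE 0.43; limma adjusted p = 0.0240). Leaving out young long-culture replicate 1, 2 or 3 gave an adjusted p of 0.0654, 0.0710 and 0.0836 with differences between -1.85 and -1.70, and without young short-culture replicate 2 the difference was -1.22 (0.0441). Serpina3n belongs to a cluster of close paralogs on chromosome 12. Of these, Serpina3a (4.52 in young long and 4.67 in young short culture) and Serpina3b (5.10 and 5.32) have probe sets of their own and were in the range of background. Serpina3g has none, and whether the Serpina3n probes also pick up paralogs was not tested.

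A2m encodes alpha-2-macroglobulin, a large cage-like inhibitor that traps proteases of many kinds, and it was the member that rose. Its signal was 6.61, 6.50 and 7.41 in young short culture, 8.36, 8.98 and 8.41 in young long culture, and 8.17 and 9.40 in the serial line. Every long-culture array was above every short-culture array, and the short-culture mean of 6.84 ± 0.50 was just under the array-wide median. The young long-culture mean was 8.58 ± 0.34, a rise of 3.35-fold (log2 1.74, SE 0.31; limma adjusted p = 0.00684). The rise passed the test with any single array left out and in the other settings tried, with adjusted p between 0.00210 and 0.0363. Its family members Pzp (6.10 in young long and 6.18 in young short culture), Mug1 (5.40 and 5.64) and Mug2 (5.81 and 5.71) did not pass, while the related membrane-bound Cd109 was higher (0.65 ± 0.13 SE, adjusted p = 0.0114).

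**Figure D2:**
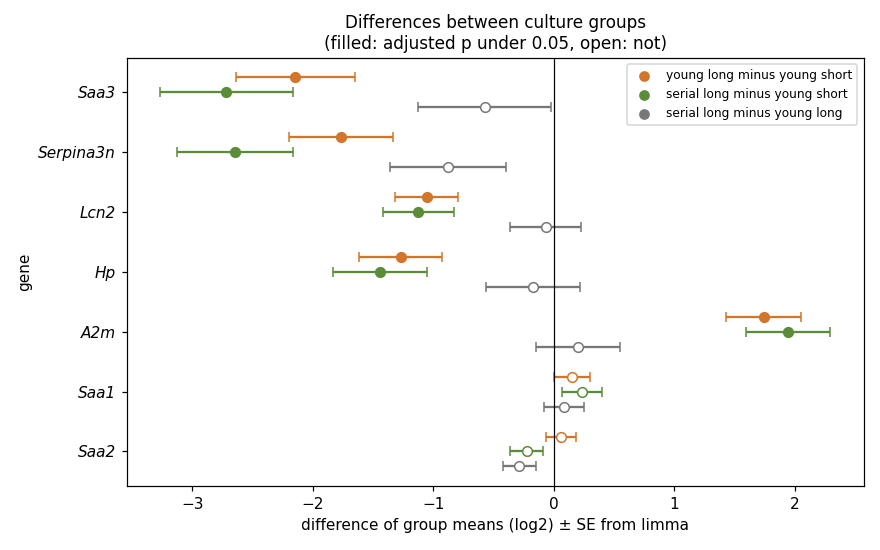
Difference of group means (log2, horizontal axis) with limma's standard error for each measured gene in the 3 comparisons; filled points have an adjusted p under 0.05. Saa3, Serpina3n, Lcn2 and Hp lie to the left and A2m to the right in both comparisons with short culture, and no point is filled for the serial against the young long culture.

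The serial line was set against short culture to see the genes at the far end of both donor age and time in vitro. The same 5 genes passed and in the same directions, with Saa3 at -2.72 ± 0.55 (SE; limma adjusted p = 0.0129), Serpina3n at -2.64 ± 0.48 (0.00813), Hp at -1.44 ± 0.39 (0.0419), Lcn2 at -1.12 ± 0.29 (0.0360) and A2m at 1.95 ± 0.35 (0.00778). Both comparisons share the 3 short-culture arrays, so they are not independent. Here 8.73% of probe sets were called, 5.15% lower and 3.58% higher, a split that centring on the median moved from 41.0% to 51.0% higher. The arrays of these 2 groups did not overlap for 37.3% of probe sets (18.4% lower, 18.9% higher). All 5 long-culture arrays lay below the 3 short-culture arrays for Saa3, Serpina3n, Lcn2 and Hp, as for 10.7% of probe sets, and above them for A2m, as for 10.1%. These calls rested on serial replicate 2: without it none of the 5 genes passed (adjusted p from 0.126 to 0.379) and Saa3 stood at -1.82, Serpina3n at -1.88, Hp at -1.35, Lcn2 at -0.79 and A2m at 1.33. Without serial replicate 1 the differences were larger for Saa3 (-3.61), Serpina3n (-3.41), Lcn2 (-1.45) and A2m (2.57). Without young short-culture replicate 2 all 5 still passed (limma adjusted p from 0.00728 to 0.0370), with Saa3 at -2.11, Serpina3n at -2.10, Hp at -0.94, Lcn2 at -0.77 and A2m at 1.78. In the fits without 1 serial array, the lone remaining one was assumed to vary like the other groups, and the whole-array count was 66 without serial replicate 2, against 2528. Lcn2 was also lost without young short-culture replicate 1 (0.0594) or any young long-culture array (0.0545 to 0.0590), and Hp without serial replicate 1 (0.130), young short-culture replicate 1 (0.0777) or any young long-culture array (0.0604 to 0.0674).

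Serial against young long culture, the comparison of donor and transplantation history at equal time in vitro, gave no call for any of the 7 genes. Limma called 0 of 28944 probe sets (0.0%), with 2079 at an unadjusted p under 0.05, which none of the 7 genes reached. The arrays overlapped for all 7, while 25.7% of probe sets had no overlap (14.9% higher, 10.8% lower). The differences were -0.57 ± 0.55 (SE) for Saa3, -0.88 ± 0.48 for Serpina3n, -0.07 ± 0.29 for Lcn2, -0.17 ± 0.39 for Hp, 0.20 ± 0.35 for A2m, 0.09 ± 0.16 for Saa1 and -0.28 ± 0.14 for Saa2. Errors of this size leave room for differences of more than 1 log2 unit in Saa3 and Serpina3n, so the genes were not shown to be alike. For both genes 1 serial array was level with young long culture and the other was not. Saa3 was -1.46 without serial replicate 1 and 0.32 without replicate 2, and Serpina3n was -1.64 and -0.12.

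The 2 serial arrays differed widely from each other in Saa3, Serpina3n, A2m and, less so, Lcn2, and not in Hp, Saa1 or Saa2. Saa3 was 3.44-fold higher on replicate 1, a gap that 2 of 28944 probe sets reached, Saa3 included. Serpina3n was 2.88-fold higher there (5 probe sets as large) and Lcn2 1.58-fold (335), while A2m was 2.36-fold higher on replicate 2 (26). Hp differed by 0.18, a gap that 39.3% of probe sets reached, Saa1 by 0.17 (40.6%) and Saa2 by 0.39 (8.09%). Young short-culture replicate 2 stood out the same way, with Saa3 1.83 above the mean of its other replicates (6 probe sets as large), Serpina3n 1.63 (16), Hp 1.51 (28), Lcn2 1.05 (133) and A2m -0.51 (2127). Young short-culture replicate 3 stood apart as well. Against a mean that includes replicate 2, Hp was at -1.365 (7 probe sets as large), Lcn2 at -0.80 (107) and A2m at 0.86 (77). Saa3 and Serpina3n were at -0.88 (65) and -0.71 (196). Without replicate 3 the differences between the young cultures were -1.725 for Hp, -1.32 for Lcn2 and 2.03 for A2m. Within each group the array highest in Saa3 was also highest in Serpina3n and Lcn2 and lowest in A2m. In young long culture the Lcn2 gap of that array was 0.06, which 71.5% of probe sets reached. The other arrays did not always keep this order. Young short-culture replicate 3 was above replicate 1 in Saa3 (10.75 and 10.71), but below it in Lcn2 (6.75 and 7.12) and above it in A2m (7.41 and 6.61). Over the 8 arrays, Pearson's r of Saa3 was 0.99 with Serpina3n, 0.97 with Lcn2, 0.91 with Hp and -0.93 with A2m, and without young short-culture replicate 2 it was 0.98, 0.94, 0.80 and -0.93. These describe arrays that share groups and carry no test. With Saa1 and Saa2 r was -0.35 and -0.01.

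**Figure D3:**
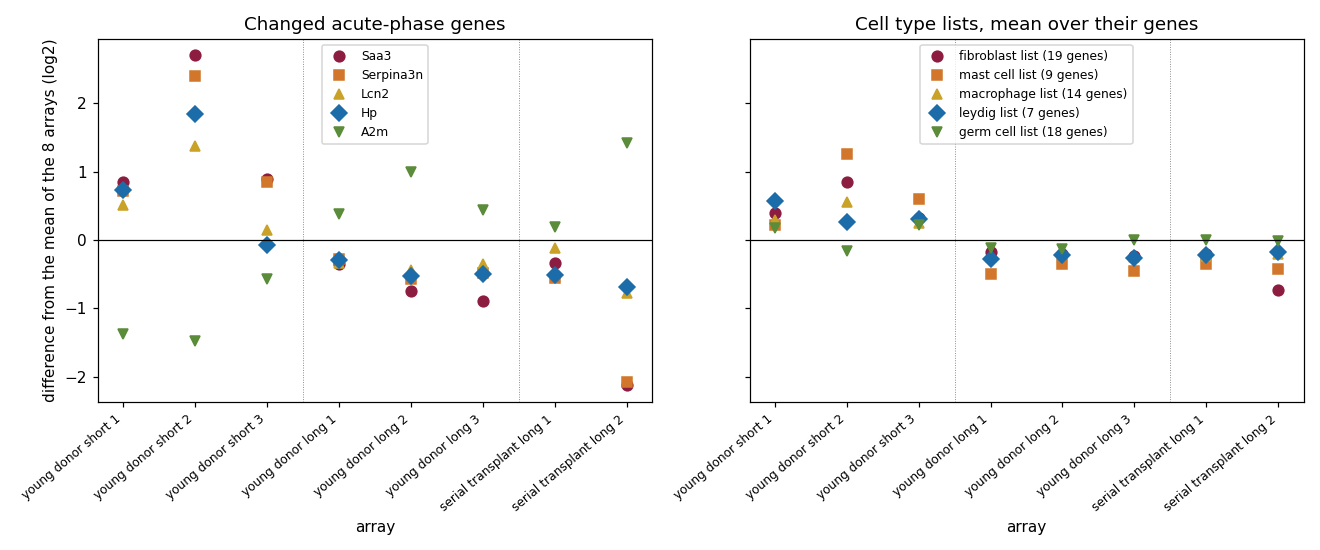
Left, each of the 5 changed genes as the difference from its mean over the 8 arrays (log2); right, the same for the mean signal of 5 cell type marker lists. Young short-culture replicate 2 is the highest array for Saa3, Serpina3n, Lcn2, Hp and the fibroblast list, and serial replicate 2 is the lowest for them, with A2m running the other way.

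Fibroblast markers were also highest on young short-culture replicate 2 and lowest on serial replicate 2. Their mean signal over 19 genes was 9.91, 10.36 and 9.83 in young short culture, 9.34, 9.31 and 9.28 in young long culture, and 9.30 and 8.78 in the serial line. Of the 19, 13 were lower in young long than in short culture and none higher, with Col1a2 at -1.04 ± 0.18 (SE; limma adjusted p = 0.00551), Cald1 at -1.06 and Acta2 at -1.24. Without young long-culture replicates 1, 2 and 3 the 13 became 8, 8 and 6. Leukocyte markers were lower too: 4 of 14 macrophage genes, such as Laptm5 (-2.29), Fcer1g (-1.69) and Ptprc (-1.42), and 4 of 9 mast cell genes, such as Srgn (-2.90) and Cpa3 (-2.79), of which 2 were left without young long-culture replicate 1 or 3. The macrophage list averaged 6.06 to 6.37 in short, 5.57 to 5.66 in young long and 5.59 to 5.62 in serial culture, with 1 of 14 genes above the array-wide median, and the mast cell list 5.87 to 6.92, 5.16 to 5.31 and 5.23 to 5.30, with 2 of 9 above it. Leydig cell genes averaged 5.72 to 6.02, 5.19 to 5.24 and 5.24 to 5.28 with 3 of 7 lower, Cyp11a1 (-2.35) and Star (-0.996) among them (1 without young long-culture replicate 1 or 3). The part of these cell types in the change of Saa3, Serpina3n, Lcn2 and Hp was not tested.

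Neutrophils and hepatocytes are the best known sources of lipocalin 2 and of plasma acute-phase proteins. None of 10 neutrophil genes had a mean above the array-wide median, and their list averaged 5.09 to 5.27 in short, 4.99 to 5.17 in young long and 5.02 to 5.05 in serial culture, with none past the test between the young cultures. Of 12 hepatocyte genes 2 were above that median, 1 fell between the young cultures (Ahsg, lost without 7 of the 8 arrays in turn), and albumin (Alb) stood at 4.74 in young long and 4.89 in young short culture. That list averaged 5.77 to 5.88, 5.63 to 5.79 and 5.90 to 5.95. Among 13 Sertoli cell genes, Wt1 (0.90 ± 0.17 SE, limma adjusted p = 0.00838) and Aard (1.25) rose with A2m in young long culture and Ctsl (-0.61) fell, the last lost without young long-culture replicate 1 or 3 or young short-culture replicate 1, with list means of 7.60 to 7.71, 7.59 to 7.69 and 7.52 to 7.64; their part in the rise of A2m was not tested. Of 10 endothelial genes none passed (group means 6.35, 6.25 and 6.22), and of 8 epithelial genes Krt18 rose (0.71), a call lost in 5 of the 8 fits that left out an array (7.28 to 7.51, 7.45 to 7.54 and 7.69 to 7.86). Germ cell markers averaged 9.42 to 9.81, 9.46 to 9.59 and 9.58 to 9.59, with 4 of 18 higher and 4 lower in young long culture, among them Tex19.1 at -3.51, Bcl6b at -1.004, Id4 at -0.80 and Nanos3 at 0.79; the 4 risers were 1, 1 and 2 without young long-culture replicate 1 or 3 and young short-culture replicate 2.

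The signalling genes around the acute-phase response include cytokines, receptors, transcription factors and inhibitors of the pathway. Of 29 measured 10 fell in young long against short culture and none rose, with a list median of -0.22 against -0.04 for all genes. Nfkb2, an NF-kB subunit, changed by -1.02 ± 0.13 (SE; limma adjusted p = 0.00208), from 9.67, 9.69 and 9.30 in short to 8.56, 8.57 and 8.46 in young long culture. Nfkbia, the inhibitor that NF-kB itself induces, was at -0.97 ± 0.18 (0.00840), Tnfrsf1a, a tumour necrosis factor receptor, at -0.78 ± 0.13 (0.00514) and Osmr, the oncostatin M receptor subunit, at -1.13 ± 0.25 (0.0180). The others that fell were Il6ra (-0.56), Il6st (-0.60), Tnfaip3, another inhibitor of NF-kB signalling (-0.54) and, with both means below the array-wide median, Lif (-0.64), Tnf (-0.37) and Cebpd (-0.45). Stat3 (11.55 in young long and 11.35 in short culture) and its feedback target Socs3 (9.09 and 8.99) did not pass, nor did Il6 (4.37 and 4.58), in the range of background. Genes in this and the other paragraphs, earlier ones included, that the naming rule does not give were picked after their values were seen. Leaving out young long-culture replicate 2 or 3 gave 4 or 3 fallers, and leaving out young short-culture replicate 2 gave 6.

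Of 25 other acute-phase genes measured, 7 fell and 1 rose (list median -0.20). Steap4, a metalloreductase of the inflammatory response, was at 11.26, 12.54 and 11.39 in young short culture, 10.06, 10.16 and 9.86 in young long culture, and 10.21 and 8.89 in the serial line, with the same highest and lowest array as Saa3. Its difference between the young cultures was -1.70 ± 0.35 (SE; limma adjusted p = 0.0119). Cp, the copper carrier ceruloplasmin, changed by -1.48 ± 0.25 (0.00563), Lbp, which hands bacterial lipopolysaccharide to its receptor, by -1.36 ± 0.36 (0.0338), and the metallothioneins Mt2 and Mt1 by -0.97 ± 0.14 (0.00310) and -0.54 ± 0.12 (0.0166). The remaining fallers, Itih4 and Ahsg, were dim, and the riser was the transferrin receptor Tfrc (0.38, adjusted p = 0.0498), which no longer passed in 7 of the 8 fits that left out an array. Crp, Apcs, Fga, Fgb, Fgg, Orm1, Orm2, Orm3 and Saa4 had means of 5.39 or less in both young groups. Without young long-culture replicate 1 or 3 the 7 fallers were 4 and 2.

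**Figure D4:**
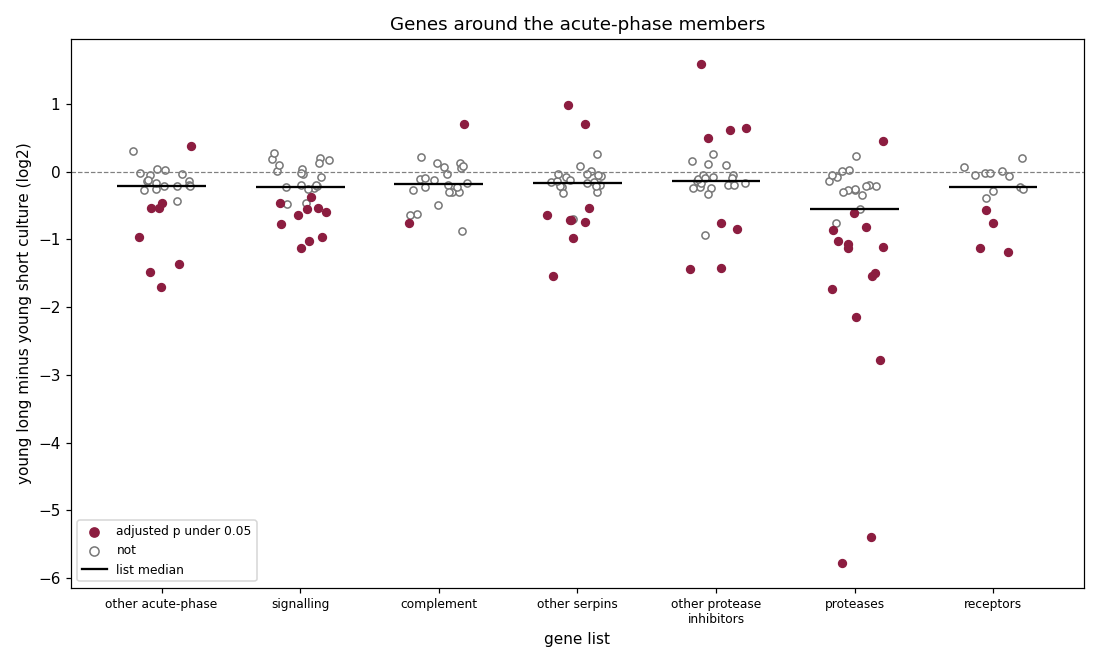
Difference between young long and young short culture (log2, vertical axis) for every measured gene of the 7 lists around the acute-phase members; filled points have an adjusted p under 0.05 and the line is the list median. Filled points lie below 0 for 10 signalling genes, 4 receptors and 14 of the 15 called proteases, and on both sides of 0 for the other protease inhibitors.

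Of 24 complement genes 1 fell and 1 rose, shares near those over all probe sets (5.83% and 5.43%). The first was C4b (-0.75 ± 0.11 SE; limma adjusted p = 0.00310) with a mean of 6.25 in young long culture, and the second Serping1, the inhibitor of the first complement component (0.70 ± 0.13, adjusted p = 0.00784), with 5 of the 24 above the array-wide median and a list median of -0.18. The single faller became 2, 2 and 4 without young short-culture replicates 1, 2 and 3.

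Protease inhibitors other than Serpina3n and A2m moved both ways. Among 29 other serpins 7 fell and 2 rose (list median -0.16). Serpini1, the neuronal serpin, rose by 0.98 ± 0.14 (SE; limma adjusted p = 0.00343) and Serping1 is counted here again. All 7 fallers were of the intracellular clade B, led by Serpinb9, which guards cells against granzyme B: it went from 7.00, 7.07 and 6.43 in short to 5.30, 5.28 and 5.27 in young long culture (-1.55 ± 0.15, adjusted p = 0.000515), below the array-wide median in both means. Serpinb8 was at -0.98 and Serpinb6a at -0.72. They were 3 or 2 when young long-culture replicate 2 or 3 was left out, and 4 when young short-culture replicate 1 was. Among 29 further inhibitors 4 rose and 4 fell (list median -0.14). Timp2, an inhibitor of metalloproteinases, was at -1.43 ± 0.28 (0.0104) and stood at 9.98 and 8.76 on the serial arrays. Reck, a membrane-anchored inhibitor of the same enzymes, was at -0.76 and Slpi, an elastase inhibitor, at -0.84. On the rising side stood Csta2, a cysteine protease inhibitor, with 5.44, 5.26 and 5.56 in short and 7.25, 6.86 and 6.94 in young long culture (1.59 ± 0.15, 0.000515). The risers were 2, 1 and 2 without young long-culture replicate 1, replicate 3 and young short-culture replicate 2.

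Of 31 measured proteases of the kinds these inhibitors act on, 14 fell and 1 rose in young long culture (list median -0.56 against -0.04 for all genes), and leaving out any 1 array left 10 to 15 fallers. Gzmb, the granzyme that Serpina3n inhibits, stood at 7.02, 7.85 and 6.55 in short, 5.50, 5.53 and 5.78 in young long, and 5.53 and 5.55 in serial culture, a difference of -1.54 ± 0.25 between the young cultures (SE; limma adjusted p = 0.00480). Its paralog Gzmc went from 9.98 to 4.21, Gzmd from 9.44 to 4.04 and Gzme from 7.43 to 5.29 in group means, though probes for such close copies may share targets. Mmp3 (-1.49), Mmp14 (-1.07), Mmp2 (-1.02), Ctsb (-0.81) and the mast cell proteases Mcpt4 (-1.73) and Tpsb2 (-1.12) fell too. Plat, the tissue plasminogen activator, was the riser (0.46, adjusted p = 0.0233), a call that ended without young long-culture replicate 2 or 3 or young short-culture replicate 1.

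Receptors through which the members act or are cleared fell in 4 of 15 cases. These were Lrp1, which clears alpha-2-macroglobulin bound to proteases (-0.76 ± 0.17 SE; limma adjusted p = 0.0178), the integrin chain Itgb2 (-0.57), and the Toll-like receptors Tlr2 (-1.13) and Tlr4 (-1.19 ± 0.17, 0.00303). Tlr4 was at 7.15, 7.44 and 6.82 in short and 6.22, 5.70 and 5.92 in young long culture. The 4 became 1, 2 and 1 without young long-culture replicates 1, 2 and 3. Slc22a17, a lipocalin 2 receptor (8.62 in young long and 8.42 in short culture), did not pass, and Cd163, the macrophage receptor of haptoglobin with haemoglobin, was in the background range (4.78 and 4.83).

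Against short culture, the serial line gave 5 fallers among the 25 other acute-phase genes, 6 among 29 signalling genes, 3 among 24 of complement, 6 among 29 other serpins, 6 among 29 further inhibitors, 15 among 31 proteases and 4 among 15 receptors, where 5.15% of all probe sets were lower. It gave 1 riser among other serpins, 2 among further inhibitors and 1 among proteases, where 3.58% were higher. Of the fallers, 5, 6, 1, 5, 4, 14 and 4 were called in young long culture too, which shares the short-culture arrays. Steap4 was at -2.18 ± 0.39 (SE; limma adjusted p = 0.00777), Cp at -1.95, Mt2 at -1.48 and Mt1 at -0.58. Osmr was at -1.54, Nfkb2 at -1.08, Nfkbia at -1.02 and Tnfrsf1a at -0.75. In complement the fallers were C4b (-0.92), the protease Masp1 (-0.87) and factor B, Cfb (-0.59).

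Among inhibitors the riser Spink2, a Kazal-type inhibitor, was at 1.20 ± 0.18 (SE; limma adjusted p = 0.00445), with Csta2 (0.83) and Serpini1 (0.73) also higher. Lower were Timp2 (-1.79), Timp1 (-1.20), Serpinf1 (-1.08), Reck (-0.80), Serpinb8 (-1.22) and Serpinb6a (-0.91). Plat was the protease that rose, by 1.07 ± 0.12 (0.00172), while Gzmc (-5.56), Gzmd (-5.40) and Gzme (-2.15) fell, as did the receptors Tlr4 (-1.39), Tlr2 (-1.23), Lrp1 (-1.02) and Itgb2 (-0.80). Without serial replicate 2 the 7 counts of fallers were 1, 0, 0, 0, 0, 3 and 0, and of the risers only the protease was left. Smaller shifts came without serial replicate 1 (3 serpins and 9 proteases lower), without young short-culture replicate 1 (3 further inhibitors lower, no serpin higher) and without young short-culture replicate 2 (1 complement gene lower). Without young long-culture replicate 1, 2 or 3 the complement fallers were 2, and the further inhibitors lower were 5, 4 and 4. Without young short-culture replicate 1 there were 2 complement fallers, and without replicate 2 there were 4 further inhibitors lower. Without young short-culture replicate 3 these counts were 4 and 7. Between serial and young long culture none of these genes passed.

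Cell type markers in the same comparison included 15 of 19 fibroblast genes lower, led by Cald1 (-1.33), Col1a2 (-1.26), Mmp2 (-1.29) and Vim (-1.07). Of the Sertoli cell genes 2 rose, Aard (1.06) and Wt1 (0.73), and 2 fell, Sox9 (-1.07 ± 0.21 SE; limma adjusted p = 0.0101) and Ctsl (-0.68). The Sertoli cell risers were 1 without any young long-culture array and without young short-culture replicate 1 or 2. Lower too were 5 macrophage genes, with Laptm5 (-2.18), Fcer1g (-1.73), Mrc1 (-1.44) and Ptprc (-1.07), 4 mast cell genes, with Srgn (-2.67), Cpa3 (-2.78) and Tpsb2 (-1.22), and the Leydig cell genes Cyp11a1 (-2.22) and Star (-1.09). Trf (1.21) and Apoa2 (0.60) of the hepatocyte list and Krt18 (1.61) and Krt8 (0.60) of the epithelial list were higher. Membership of a list does not give the cell source of a transcript. Germ cell genes went both ways, 3 higher and 4 lower, with Lin28a (0.73), Nanos3 (0.86), Id4 (-0.83) and Tex19.1 (-3.74). Without serial replicate 2, 2 macrophage, 1 mast cell and 1 germ cell gene were left lower and none of the others passed. Without serial replicate 1 the mast cell fallers were 1, the Leydig cell fallers 1, the germ cell fallers 2, the hepatocyte risers 1 and the Sertoli cell risers and fallers 1 each. The part of these cell types in the members' changes was not tested.

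The genes with the profile most like each bright member were sought among 440 genes with a mean above the array-wide median and an SD of at least 0.5 over the 8 arrays. For Saa3 these were Capn6 (Pearson's r 0.998), Mme (0.997) and Man1a (0.995). Mme, a membrane metallopeptidase, went from 9.58, 11.22 and 9.70 in young short culture to 8.60, 8.40 and 8.20 in young long culture, and to 8.49 and 7.31 in the serial line. Serpina3n was closest to Trim30d (0.997), Pcolce (0.996) and Matn2 (0.995), and Hp to Ltbp1 (0.990), Bdh2 (0.987) and Fkbp7 (0.986). Pcolce enhances procollagen processing, Matn2 is a matrix protein and Ltbp1 binds latent TGF-beta in the matrix. A2m ran with Rhebl1 (0.986), Tom1l1 (0.966) and Sqle (0.961), the last an enzyme of cholesterol synthesis. The likeness was taken over 8 arrays that share groups and carries no test.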

How the data were processed

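RNA of 8 arrays was analysed from the deposited log2 table, for which the submitters' processing notes name Partek 6.4 and RMA, a method that corrects background, normalizes between arrays and summarises probes. The sources used here do not give its settings, and the log2 scale was inferred from the range of 2.42 to 14.81. Of 35557 rows, 6613 with consecutive identifiers at the top of the table were treated as controls and dropped; only their numbering marks them. Among the remaining 28944 probe sets, 21789 carry 1 gene symbol in the platform annotation, 1621 several and 5534 none, and 21698 of the first were found by gene number in RefSeq (GRCm38.p6). Limma 3.58.1 (R 4.3.3) was fitted once over all 8 arrays with a coefficient per group, followed by eBayes (residual degrees of freedom 5, prior 6.28). Its two-sided p-values were adjusted by Benjamini-Hochberg across every tested probe set, with 0.05 as threshold. The fit was tested on simulated data first, and no arrays held identical values. The members and lists were chosen with earlier results of these data known. By rule, named are all members, the genes with the 4 smallest p-values per list and comparison that passed with a group mean over the array-wide median, and the 3 genes of highest Pearson's r for each member over it. Genes named beyond this rule were picked after their values were seen. Alternatives were an intensity trend, array weights, the compared groups alone, no dim probe sets, quantile normalization or centring, all rows, a log2 change of at least 1, the mean of a gene's probe sets, the replicate number as a block, and each array left out. List counts without each array were added after seeing the data.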

Additional observations from a re-analysis of the deposited data

How the results depend on the processing

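In the 348 values of the 7 genes recomputed under the alternatives, 298 kept direction and side of the threshold. Another 44 kept direction but lost their call, and 6 changed sign, all in comparisons where the gene had not passed. The 298 overstate steadiness, since they include comparisons never called and the mean of a gene's probe sets, which repeats the main value here. Between the young cultures, leaving out a serial array also repeats the fit of the compared groups alone. There A2m passed in 17 of 17 values, Saa3 and Serpina3n each in 13 of 17, Lcn2 in 11 of 16 and Hp in 8 of 17. With 1 array left out, the log2 difference between serial and young long culture ran from -1.46 to 0.32 for Saa3, -0.40 to 0.26 for Lcn2, -0.42 to 0.82 for A2m and -0.0416 to 0.24 for Saa1, and that between the young cultures from -0.00200 to 0.28 for Saa1 and -0.00790 to 0.12 for Saa2. Members called between the young cultures numbered 3 after a second quantile normalization, 1 with all rows of the table in the fit and 1 to 5 with 1 array left out, against 5. For serial against short culture they were 3 with the compared groups alone, 3 after quantile normalization, 2 with all rows and 0 to 5 with 1 array left out, against 5. Probe sets called between the young cultures (3260) were 5079 with array weights, 1542 with all rows, 396 with a log2 change of at least 1, and 1085 to 3195 with 1 array left out. Between serial and short culture (2528) they were 1252 with the compared groups alone, 1079 with all rows, 564 with a log2 change of at least 1, and 66 to 2817 with 1 array left out. For serial against young long culture (0) they were 22 with array weights, 15 with the compared groups alone, 4 with the replicate number as a block, and 0 to 11 with 1 array left out. Same-numbered young arrays correlated in their deviations at 0.081, 0.176 and 0.102, and 2 of 3 long-culture arrays correlated best with their own number. These values do not settle whether the numbers pair samples. The labels state no pairing, and none was assumed in the main fit. With the replicate block, 2754 probe sets and 5 members were called between the young cultures and 2468 and 5 between serial and short culture. With all rows, more features enter the adjustment and the shared variance; the cause of the other shifts was not tested. Dim values of Saa1, Saa2 and, in long culture, Lcn2 and Hp limit what can be read from them.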
